A study of Mus musculus with 58 samples.

Results

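Trp53, the gene of the transcription factor p53, and 9 genes that p53 is known to activate were followed through every library of the series: Cdkn1a, Mdm2, Ccng1, Trp53inp1, Btg2, Phlda3, Bbc3, Bax and Aen. The 10 genes were chosen by name as known members of the pathway. The rule used no measured value, but earlier results of these data were known when it was made. All 10 of them were present among the 20177 genes counted. RNA was measured in E14 mouse embryonic stem (mES) cells of 129/Ola background grown on gelatin with serum and LIF. In DPY30–mAID cells, both copies of Dpy30 carry an auxin-inducible degron and the cells express OsTIR1, so that auxin removes the DPY30 protein. In RBBP5–FKBP cells, which are a clonal line, dTAG-13 removes RBBP5. In DPY30–mAID Kdm5a/b-dKO cells (dKO below), Kdm5a and then Kdm5b were also knocked out, and auxin removes DPY30. These cells came from picked clones, and the clone behind each library was not given in the sources used here. DPY30 and RBBP5 are core subunits of the SET1/COMPASS complexes that methylate histone H3 at lysine 4 (H3K4), and the KDM5 proteins remove that methylation. SLAM-seq, in which 4SU marks new RNA so that its reads carry T>C conversions, gave 36 libraries. They comprise 3 libraries each at 0, 2, 8 and 24 h of depletion in the DPY30–mAID and RBBP5–FKBP lines, and 2 each at 0, 2, 4, 8, 24 and 48 h in dKO cells. Quant-seq, which counts 3′ ends of unlabelled RNA, gave 22 libraries of DPY30–mAID cells treated with retinoic acid (RA) without LIF. They comprise DMSO at 0 h, and DMSO or auxin at 8 h and days 1, 2, 4 and 6, with 2 libraries a group. Both DMSO files of day 6 were identical, so they entered as 1 sample and 21 libraries were used. Auxin at 0 h in this assay was not analysed here.

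p53 is held at a low level by MDM2, an E3 ubiquitin ligase that p53 itself induces, and stress such as DNA damage releases it from this loop. Free p53 binds a site made of a pair of similar elements in its target genes, among them inhibitors of the cell cycle, feedback genes and genes of the mitochondrial death pathway. In mES cells p53 is abundant, and besides its role in the damage response it is known to favour exit from self-renewal.

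Promoter stretches that hold a match to the p53 binding motif are shown first. In RefSeq promoters of GRCm38.p6, which span 250 bases before to 50 bases after a start, 9 of the 10 genes were matched, with 13 promoters. They were searched for the p53 consensus full site, a pair of elements of 10 letters each with at most 1 base between them, with the C and G core of each element kept and up to 3 other mismatches. The consensus is its own reverse complement, so a search of 1 strand covers both. Matches were found in 6 of the genes and are in capitals, with 20 bases on either side, 5′ to 3′ on the gene's strand.
Trp53: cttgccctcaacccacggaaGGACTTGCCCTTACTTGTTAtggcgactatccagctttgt
Cdkn1a: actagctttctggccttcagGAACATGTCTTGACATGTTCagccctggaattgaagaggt
Ccng1: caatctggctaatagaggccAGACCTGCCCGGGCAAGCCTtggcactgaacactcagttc
Bbc3: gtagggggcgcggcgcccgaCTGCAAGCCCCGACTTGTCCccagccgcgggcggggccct
Bax: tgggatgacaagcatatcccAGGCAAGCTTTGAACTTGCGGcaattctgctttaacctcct
Aen: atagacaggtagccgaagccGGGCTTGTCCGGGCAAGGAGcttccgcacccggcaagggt

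The closest matches, with 1 mismatch each, were in Cdkn1a (chr17:29090908-29090967, + strand, site at −51 to −32 from the start) and Ccng1 (chr11:40755442-40755501, − strand, −195 to −176). Bax had 2 mismatches and 1 spacer base (chr7:45467059-45467119, − strand, −201 to −181). Trp53 (chr11:69580264-69580323, + strand, −75 to −56), Bbc3 (chr7:16309466-16309525, + strand, −97 to −78) and Aen (chr7:78895917-78895976, + strand, 10 to 29) had 3 each. Of all 32851 promoters, 2.82% held a match with up to 3 mismatches, 0.682% with up to 2 and 0.11% with up to 1. These shares are per promoter, while the matches above are listed per gene. Positions are from the start of the window that held the match. Another window of Cdkn1a and the other windows of Bbc3 held no match, and in the other window of Aen the match began at −121. The windows of Mdm2, Btg2 and Phlda3 held no match in these letters, and Trp53inp1 was not in the promoter table.

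Library depth, as the sum of counts, was 2013350 to 2806821 reads for DPY30–mAID, 1721185 to 2852331 for RBBP5–FKBP, 5931269 to 7792404 for dKO and 1264241 to 2543632 for Quant-seq. The libraries of dKO cells and of Quant-seq covered 11.2 to 11.9 T positions per read against 18.0 to 19.0 in the other lines, so in levels set beside those of DPY30–mAID and RBBP5–FKBP cells, the line or assay and this difference cannot be told apart. The study calls the SLAM-seq libraries of a group biological replicates. For Quant-seq the sources used here do not say whether they came from separate cultures, so p-values there measure the spread between these samples, which may be technical. All 6 markers of mES cells (Pou5f1, Nanog, Sox2, Zfp42, Esrrb and Dppa5a) had reads in every group, with a summed level of 4875 to 8031 counts per 1000000 reads (CPM) in SLAM-seq groups. Fibroblast markers summed to at most 22.5 CPM in SLAM-seq groups, with 1 to 5 of the 6 at 0. The degrons act on protein and 3′-end reads need not show a disabling Cas9 lesion, so the targeted genes' reads do not check the labels. At 0 h, Dpy30 had 161 CPM (154 to 172) in DPY30–mAID cells and Rbbp5 56.3 CPM (44.3 to 75.2) in RBBP5–FKBP cells. Kdm5b was at 109 and 151 CPM in dKO cells and at 906 to 946 CPM in DPY30–mAID cells.

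After 24 h without DPY30, total RNA of 6 of the 10 genes rose and that of Trp53 fell. Ccng1, Trp53inp1, Phlda3, Btg2, Mdm2 and Aen rose by 0.54 to 1.19 on the log2 scale. Among all 9848 genes tested, 15.9% rose and 17.1% fell in this comparison. The median log2 fold change was 0.61 over the members and 0.01 over all genes. Calls are at an adjusted p below 0.05 in edgeR's quasi-likelihood test with no minimum fold, and all times of a line are compared with the same 0 h libraries. In the dKO line, 7 of 10 rose at 24 h and the same count at 48 h, against 5.05% and 6.72% of 11394 genes, and none fell. Without replicate 1 of 24 h, 3 of the calls of 24 h were left (Mdm2, Trp53inp1 and Aen), and those of 48 h held in each alternative tried except a minimum log2 fold change of 1, which none of the 7 reached. The member medians there were 0.42 and 0.55, with all-gene medians of 0.01 and 0.01. In the RBBP5–FKBP line, 3 of 10 rose at 8 h and 1 at 24 h, against 4.13% and 2.99% of 9676 genes, with member medians of 0.24 and 0.08. At 8 h without DPY30, by contrast, 3 of 10 fell (Mdm2, Cdkn1a and Aen) and none rose, with 7.61% of all genes falling. These 3 calls were fragile, since 0 to 2 of them were left in each fit without 1 library, and none without TMM scaling, where Bbc3 was called higher.

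**Figure D1:**
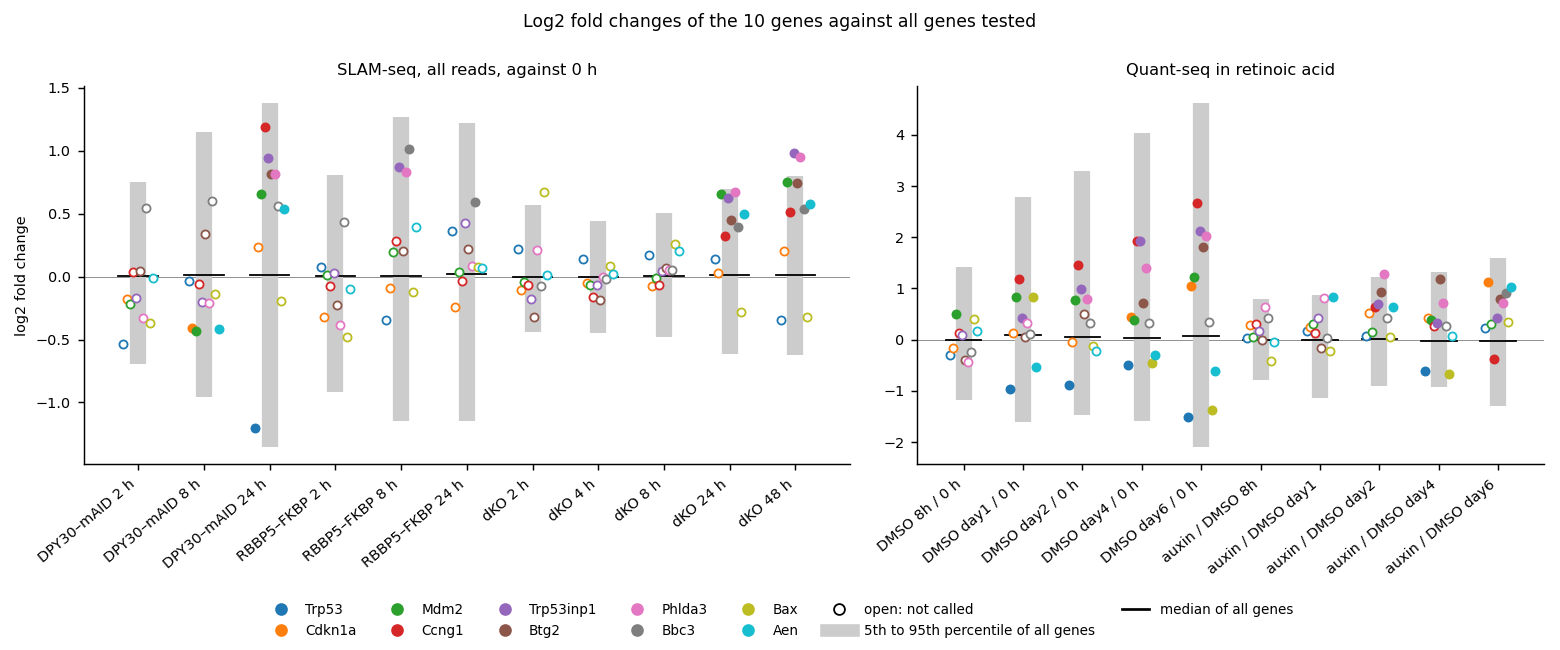
The log2 fold change of each gene in each comparison (points) is set against the 5th to 95th percentile of all genes tested (grey bars) and their median (black). In total RNA of DPY30–mAID and dKO cells at the late times, most members lie above the median of all genes, while Trp53 lies below it in DPY30–mAID cells at 24 h.

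At 2 h in each line, and at 4 and 8 h in dKO cells, edgeR called no member in total RNA. At 2 h, 1 member was higher and 1 lower at an unadjusted p below 0.05 in each of the 3 lines. Of all genes, 3.97% were higher and 4.44% lower at this threshold in DPY30–mAID cells, 4.02% and 4.3% in RBBP5–FKBP cells and 5.43% and 4.5% in dKO cells. In dKO cells there was no such member at 4 h, beside 2.69% and 3.47% of genes, and 1 was higher at 8 h, beside 6.18%. DESeq2 called no member in these 5 comparisons either. At 2 h it gave no adjusted p to 4964 of 9848 genes in DPY30–mAID, 188 of 9676 in RBBP5–FKBP and 10382 of 11394 in dKO cells. In dKO cells at 8 h this held for 7069 genes. Any member among these could not be called. In DPY30–mAID cells at 2 h Trp53 was at 136, 119.6 and 116 CPM, below its 3 libraries at 0 h, with a log2 fold change of −0.54 and an adjusted p of 0.21.

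Trp53 itself (chromosome 11, 69580359 to 69591873, + strand, ENSMUSG00000059552) was at 189, 146 and 190.2 CPM at 0 h in DPY30–mAID cells. It was at 206, 179.6 and 163 CPM at 8 h, and at 101, 59.6 and 67.8 CPM at 24 h. All libraries of 24 h lay below all of 0 h, and Trp53 fell by 1.20 on the log2 scale (SE 0.16, adjusted p = 2.75e-08). In dKO cells its level was lower, at 24.1 and 28.0 CPM at 0 h, 31.2 and 28.8 CPM at 24 h and 17.1 and 26.6 CPM at 48 h. The log2 fold change there was 0.14 ± 0.19 (SE) at 24 h (adjusted p = 0.702) and −0.34 ± 0.19 at 48 h (adjusted p = 0.268). In the RBBP5–FKBP line, Trp53 varied widely between libraries of a group, at 70.7, 188 and 176 CPM at 0 h, 123, 67.4 and 166 CPM at 8 h and 176, 219 and 179 CPM at 24 h. The groups overlapped and neither change passed the test. Without replicate 1 of 0 h, the 8 h value went from −0.34 to −0.66 with an adjusted p of 0.0489, and that of 24 h from 0.36 to 0.04. For Trp53, 11.3% of reads were multi-mapped.

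Mdm2 (chromosome 10, 117688875 to 117710758, − strand, ENSMUSG00000020184), the ligase that limits p53, was at 181, 177 and 158 CPM at 0 h in DPY30–mAID cells, and at 149.6, 120.0 and 141 CPM at 8 h. At 24 h it was at 272, 275 and 272 CPM. The libraries of 8 h lay below those of 0 h and those of 24 h above, with log2 fold changes of −0.43 ± 0.13 (adjusted p = 0.0203) and 0.65 ± 0.13 (adjusted p = 5.12e-05). In dKO cells Mdm2 was at 280.0 and 253 CPM at 0 h, 427 and 449 CPM at 24 h, and 474 and 478 CPM at 48 h. It rose by 0.65 ± 0.06 and 0.75 ± 0.06 on the log2 scale (adjusted p = 1.09e-05 and 1.83e-06). After RBBP5 loss Mdm2 was at 155, 146 and 161 CPM at 0 h, 188, 162 and 195 CPM at 8 h and 164, 167 and 153 CPM at 24 h. The libraries of 8 h lay above those of 0 h and those of 24 h overlapped them, and neither time passed the test (0.19 ± 0.16 and 0.03 ± 0.16).

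Cdkn1a (chromosome 17, 29090976 to 29100727, + strand, ENSMUSG00000023067) encodes p21, the inhibitor of cyclin-dependent kinases by which p53 arrests the cell cycle. In DPY30–mAID cells it was at 235, 232 and 179 CPM at 0 h, 202, 184 and 135 CPM at 8 h and 277, 216 and 272 CPM at 24 h. It fell at 8 h by 0.41 on the log2 scale (SE 0.14, adjusted p = 0.0414), a value that was −0.26 without replicate 3 of 8 h. The rise at 24 h, 0.24 ± 0.14, did not pass the test (adjusted p = 0.187). In dKO cells, at 72.7 and 64.4 CPM at 0 h and 96.5 and 71.6 CPM at 48 h, the log2 fold change was 0.21 ± 0.12 (adjusted p = 0.271). In RBBP5–FKBP cells it was −0.09 ± 0.14 at 8 h and −0.24 ± 0.14 at 24 h, neither of which passed the test. Total Cdkn1a RNA thus passed the test in none of the late SLAM-seq comparisons in which Mdm2 and Ccng1 rose.

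Ccng1 (chromosome 11, 40748552 to 40755311, − strand, ENSMUSG00000020326), which encodes cyclin G1, a partner of PP2A phosphatase that acts on MDM2, had the largest rise of the 10 genes at 24 h without DPY30. It was at 121, 162 and 163 CPM at 0 h, 161, 150.1 and 151 CPM at 8 h, and 327, 354 and 349.5 CPM at 24 h. The lowest library of 24 h was above the highest of 0 h by a wide margin, with a log2 fold change of 1.19 ± 0.13 (adjusted p = 1.34e-10). In dKO cells Ccng1 was at 233 and 237 CPM at 0 h, 307 and 309 CPM at 24 h and 342 and 373 CPM at 48 h. It rose by 0.33 ± 0.08 (adjusted p = 0.0153) and 0.52 ± 0.08 (adjusted p = 0.000418). In RBBP5–FKBP cells it was at 159, 167 and 188 CPM at 0 h, 218, 207 and 221 CPM at 8 h and 149, 176 and 188 CPM at 24 h. The libraries of 8 h lay above those of 0 h, but neither time passed the test (0.28 ± 0.15 and −0.04 ± 0.15).

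Trp53inp1 (chromosome 4, 11156431 to 11174379, + strand, ENSMUSG00000028211) encodes a stress protein that promotes phosphorylation of p53 and takes part in autophagy. It was at 217, 179.9 and 181 CPM at 0 h in DPY30–mAID cells and at 377, 326 and 410.0 CPM at 24 h, a rise of 0.94 ± 0.12 (adjusted p = 2.02e-08). In dKO cells it was at 137 and 112 CPM at 0 h, 202 and 199 CPM at 24 h, and 250.4 and 271 CPM at 48 h. Both late times lay above 0 h, with rises of 0.63 ± 0.10 (adjusted p = 0.000701) and 0.98 ± 0.10 (adjusted p = 7.51e-06). In RBBP5–FKBP cells it was at 137, 143 and 129 CPM at 0 h, 309, 221 and 243 CPM at 8 h, and 169, 189 and 203 CPM at 24 h. Here the highest time was 8 h, with a rise of 0.87 ± 0.15 (adjusted p = 0.000634), while 24 h gave 0.42 ± 0.15 (adjusted p = 0.0856).

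Phlda3 (chromosome 1, 135766119 to 135769136, + strand, ENSMUSG00000041801), an inhibitor of AKT signalling, went from 29.3, 29.2 and 33.0 CPM at 0 h to 52.6, 52.4 and 57.7 CPM at 24 h without DPY30. The groups did not overlap (0.82 ± 0.26, adjusted p = 0.011). In dKO cells it went from 23.2 and 34.1 CPM at 0 h to 51.8 and 44.0 CPM at 24 h and 53.7 and 64.6 CPM at 48 h, with rises of 0.67 ± 0.16 and 0.95 ± 0.16 (adjusted p = 0.0159 and 0.00101). The first of these was 0.40 without replicate 1 of 0 h. After RBBP5 loss Phlda3 was highest at 8 h, at 61.6, 72.4 and 53.6 CPM against 28.6, 37.9 and 35.6 CPM at 0 h. That rise, 0.83 ± 0.24 (adjusted p = 0.0317), lost its call without any 1 of the 0 h libraries or without replicate 1 or 2 of 8 h.

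Btg2 (chromosome 1, 134075170 to 134079120, − strand, ENSMUSG00000020423), an antiproliferative protein that recruits the CCR4–NOT deadenylase, was at 20.5, 12.5 and 23.5 CPM at 0 h in DPY30–mAID cells and at 38.5, 32.5 and 29.1 CPM at 24 h (0.81 ± 0.30, adjusted p = 0.0334). The groups did not overlap, but the call was lost without replicate 2 of 0 h or without replicate 1 or 2 of 24 h. In dKO cells it was at 43.7 and 47.1 CPM at 0 h, 63.7 and 66.0 CPM at 24 h and 72.3 and 89.4 CPM at 48 h. It rose at both times, by 0.45 ± 0.12 (adjusted p = 0.0268) and 0.74 ± 0.12 (adjusted p = 0.000682). Its groups overlapped at every time in RBBP5–FKBP cells.

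Of the genes of cell death, Bbc3 (chromosome 7, 16308393 to 16318205, + strand, ENSMUSG00000002083) encodes PUMA, which frees BAX to permeabilize mitochondria. It was at 31.7, 46.7 and 30.4 CPM at 0 h in DPY30–mAID cells, 73.7, 67.3 and 36.9 CPM at 8 h and 47.7, 62.1 and 52.9 CPM at 24 h. The libraries of 24 h lay above those of 0 h, yet the log2 fold change of 0.56 ± 0.23 did not pass the test (adjusted p = 0.0588). After RBBP5 loss, Bbc3 had the largest rise of the 10 genes, from 67.0, 49.4 and 51.9 CPM at 0 h to 113, 113 and 125 CPM at 8 h (1.02 ± 0.18, adjusted p = 0.000917). At 24 h it was at 92.1, 82.0 and 85.3 CPM (0.59 ± 0.18, adjusted p = 0.048), a call that was lost without replicate 2 or 3 of 0 h or any 1 library of 24 h. In dKO cells it rose from 92.7 and 78.0 CPM to 120.2 and 113 CPM at 24 h and 137 and 125 CPM at 48 h (0.39 ± 0.09 and 0.53 ± 0.09, adjusted p = 0.00932 and 0.000699).

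Bax (chromosome 7, 45461697 to 45466898, − strand, ENSMUSG00000003873), the pore-forming effector itself, did not follow the others. Its libraries overlapped at 32.2, 29.9 and 11.6 CPM at 0 h and 20.9, 22.3 and 21.4 CPM at 24 h in DPY30–mAID cells (−0.20 ± 0.33, adjusted p = 0.688). In dKO cells it was at 31.2 and 56.2 CPM at 0 h and 35.1 and 39.8 CPM at 48 h (−0.32 ± 0.20, adjusted p = 0.328). Aen (chromosome 7, 78895854 to 78911209, + strand, ENSMUSG00000030609), an exonuclease that digests DNA in apoptosis, went from 159, 136 and 145 CPM at 0 h to 99.7, 127 and 127 CPM at 8 h and 219.8, 198 and 224 CPM at 24 h without DPY30. It was below 0 h at 8 h (−0.41 ± 0.14, adjusted p = 0.0413) and above it at 24 h (0.54 ± 0.14, adjusted p = 0.00176), the order also seen for Mdm2. In dKO cells Aen went from 234 and 207 CPM to 329 and 322 CPM at 24 h and 349 and 349 CPM at 48 h (0.50 ± 0.07 and 0.58 ± 0.07, adjusted p = 0.000271 and 5.86e-05). After RBBP5 loss Aen was at 119, 127 and 144 CPM at 0 h, 185, 188 and 158 CPM at 8 h and 135, 151 and 133 CPM at 24 h. Its libraries of 8 h lay above those of 0 h as well, but the change missed the threshold (0.40 ± 0.15, adjusted p = 0.11). Multi-mapped reads made up 89.0% of its counts, so the values of Aen are uncertain and may include another gene's reads.

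**Figure D2:**
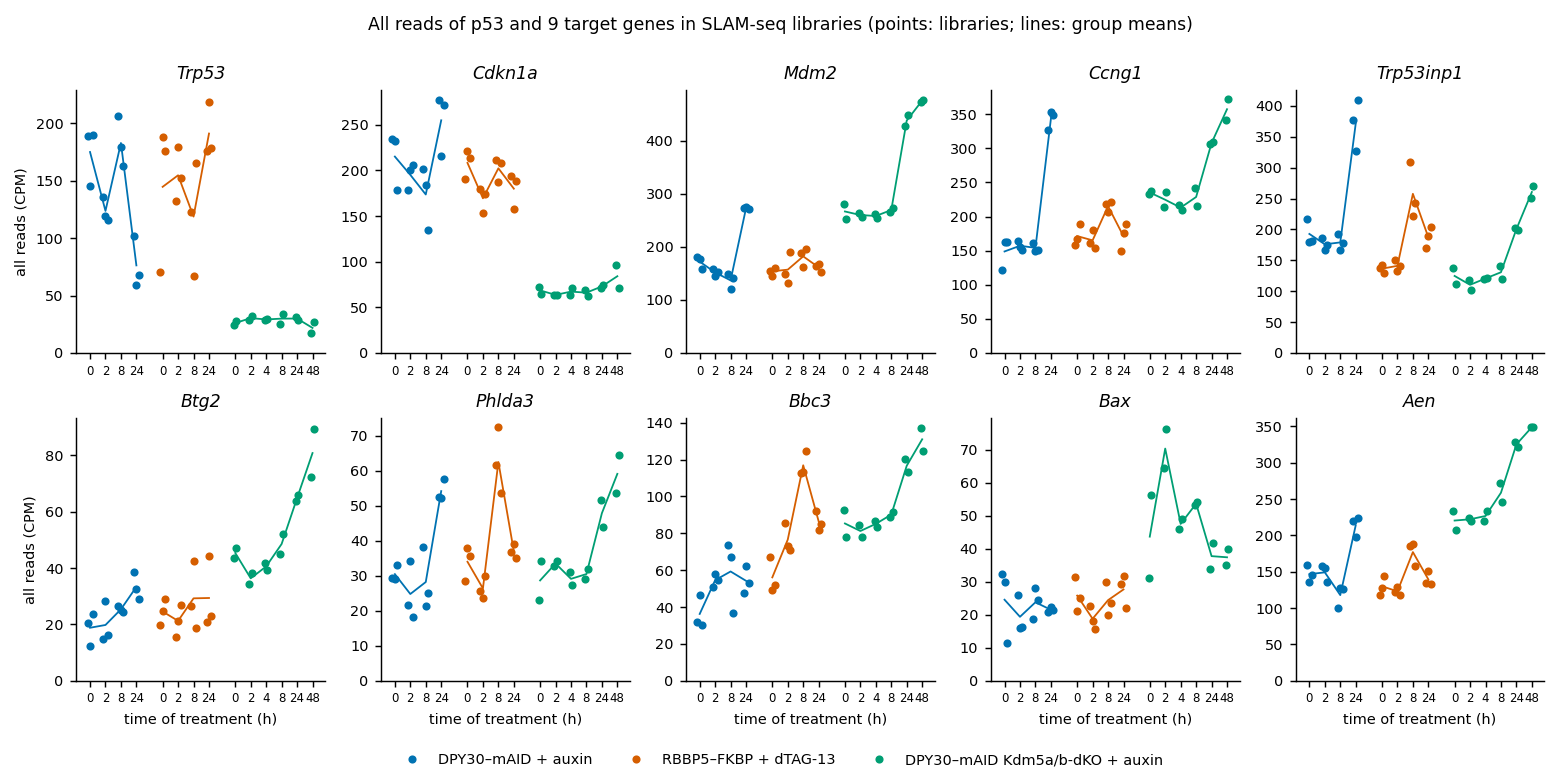
All reads of each gene in CPM (vertical axes) are plotted against hours of depletion in each SLAM-seq line, with a point per library and lines through group means. Ccng1 goes from 121 to 163 CPM at 0 h to 327 to 354 CPM at 24 h in DPY30–mAID cells, while Trp53 goes from 146 to 190.2 CPM to 59.6 to 101 CPM.

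Nascent RNA, given as T>C reads per 1000000 reads counted (T>C CPM), showed a fall at 8 h and a rise from 8 to 24 h in DPY30–mAID cells. Of 9 members with enough T>C reads to test, Mdm2, Trp53inp1 and Aen fell at 8 h, against 16.1% of 6317 genes. The count was 0 without any 1 library of 0 h or without replicate 2 of 8 h, and 6 without replicate 1 of 8 h. The member median of −0.85 lay close to the all-gene median of −0.71. With library sizes scaled on T>C reads the all-gene median moved to −0.09, none of these 3 calls held and Bbc3 rose, so the fall of the members is not told apart from that of all genes. In this group the libraries themselves carried 5.51 to 13% T>C reads, against 15.8% on average at 0 h, with replicate 3 the lowest. Trp53inp1 was at 73.7, 73.7 and 71.7 T>C CPM at 0 h and 53.3, 43.6 and 25.5 at 8 h, and replicate 3 was also the lowest for Mdm2 and Aen.

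From 8 to 24 h without DPY30, 5 of 9 members rose in nascent RNA, against 17.1% of genes, with a member median of 1.42 and an all-gene median of 0.56. Ccng1 went from 30.7, 22.8 and 5.47 to 70.6, 94.6 and 81.9 T>C CPM, and Mdm2 from 49.4, 38.2 and 26.4 to 117, 113 and 108. The log2 fold changes were 2.15 ± 0.38 for Ccng1 (adjusted p = 6.92e-05) and 1.65 ± 0.31 for Mdm2 (adjusted p = 0.000179). Both genes had all libraries of 24 h above all of 8 h. Trp53inp1 rose by 1.88 ± 0.31, Aen by 1.52 ± 0.38 and Cdkn1a by 1.31 ± 0.35, while Trp53 gave −0.03. Scaled on T>C reads, the rises were 1.70 for Ccng1, 1.35 for Trp53inp1, 1.10 for Mdm2, 1.03 for Aen and 0.84 for Cdkn1a, and all passed the test, beside 9.58% of all genes called higher. Without replicate 3 of 8 h they were 1.71, 1.64, 1.45, 1.19 and 0.92, and also passed it. In a fit of the 2 groups compared alone, Cdkn1a lost its call (1.31, adjusted p = 0.0503).

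Against 0 h, only Ccng1 rose in nascent RNA at 24 h (1.36 ± 0.37, adjusted p = 0.0243), from 28.3, 38.1 and 29.0 T>C CPM, and that call was lost in each fit that left out 1 library. The background was 0.823% of genes. The other members tested missed the threshold, among them Trp53inp1 (0.94, adjusted p = 0.0561) and Mdm2 (0.79, adjusted p = 0.131). With T>C scaling 4 members were called higher, beside 6.78% of all genes. At 2 h edgeR and DESeq2 called no member, and none had an unadjusted p below 0.05, beside 1.01% of genes higher and 2.14% lower.

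In dKO cells the nascent RNA of 6 of 10 members fell at 48 h, while 72.2% of 5965 genes did so. The member median of −0.74 was above the all-gene median of −1.29. Mdm2 was at 59.0 and 67.5 T>C CPM at 0 h and 36.7 and 43.4 at 48 h, and Trp53inp1 at 13.4 and 12.2 and then 11.6 and 13.7. Mdm2 fell by 0.75 on this scale (adjusted p = 3.48e-05), whereas Trp53inp1 gave −0.10. Scaled on T>C reads, the all-gene median was −0.11 and the direction turned for 9 of the 10 members, all but Cdkn1a, with 0.44 for Mdm2 and 1.08 for Trp53inp1, so no direction is given for nascent RNA of these genes in dKO cells. Library T>C reads went from 4.98% at 0 h to 2.20% at 48 h. At 24 h no member was called while 43.0% of genes fell, with member and all-gene medians of −0.26 and −0.80. With T>C scaling at 24 h, Mdm2 (0.52), Trp53inp1 (0.68) and Bbc3 (0.63) were called higher, beside 132 of 5965 genes higher and 222 lower. At 2, 4, 8 and 24 h, edgeR and DESeq2 called no member with scaling on total reads. At an unadjusted p below 0.05, 0, 6, 1 and 1 of them were lower, beside 5.8%, 13.5%, 11.4% and 52.4% of all genes. DESeq2 gave no adjusted p to 5666, 5204 and 694 of the 5965 genes at 4, 8 and 24 h, and any member among these could not be called. The member and all-gene medians at 4 h were −0.51 and −0.26.

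After RBBP5 loss, Cdkn1a and Mdm2 fell in nascent RNA at 24 h, against 25.9% of 4761 genes. Cdkn1a was at 65.1, 58.9 and 47.6 T>C CPM at 0 h, 28.2, 38.7 and 36.2 at 8 h and 24.8, 16.3 and 28.0 at 24 h. Mdm2 was at 52.6, 45.9 and 32.0 at 0 h, 52.4, 40.3 and 37.6 at 8 h and 15.5, 21.9 and 17.4 at 24 h. The libraries of 24 h lay below those of 0 h for both genes (−1.34 ± 0.29, adjusted p = 0.000293, and −1.28 ± 0.30, adjusted p = 0.000992). The all-gene median was −0.91, and with T>C scaling, where it was −0.20, neither gene was called. From 8 to 24 h Mdm2 fell by 1.23 ± 0.31 (adjusted p = 0.0298), with 1.2% of genes falling. That call was lost with T>C scaling, in a fit of those groups alone and without replicate 1 of 8 h or replicate 1 or 3 of 24 h. At 2 and 8 h edgeR called no member, and 3 and 2 of them were lower at an unadjusted p below 0.05, beside 10.8% and 19.9% of all genes. DESeq2 called 2 and 1 of them lower, with 122 and 498 of all genes. It gave no adjusted p to 3415 and 2584 of the 4761 genes, so these could not be called. The all-gene medians were −0.33 and −0.50 and those of the members −0.69 and −0.04.

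**Figure D3:**
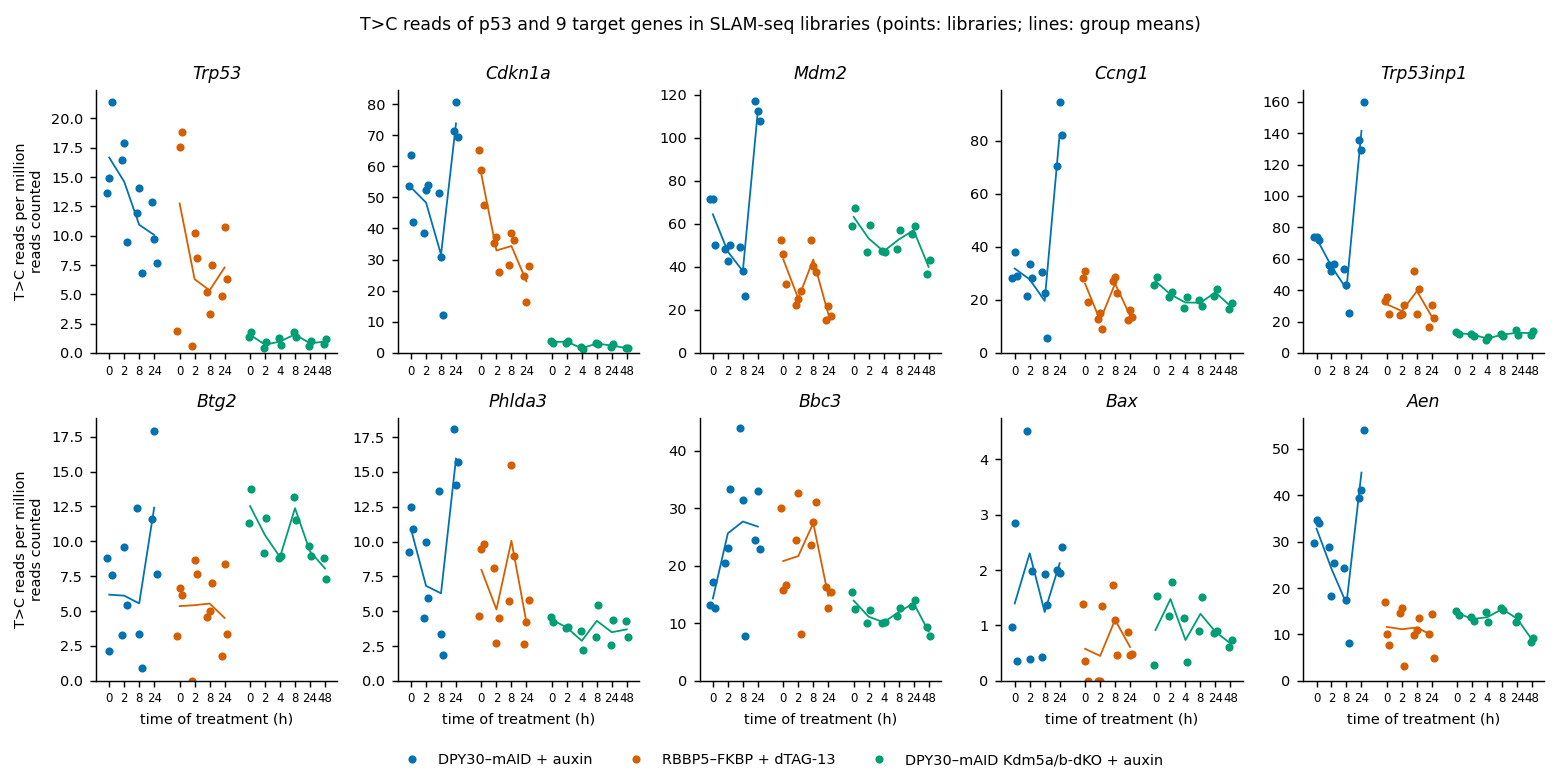
T>C reads of each gene per 1000000 reads counted (vertical axes) are plotted against hours of depletion, with a point per library and lines through group means. In DPY30–mAID cells Mdm2 and Ccng1 are highest at 24 h, and the libraries of Ccng1 at 8 h (5.47 to 30.7) overlap those at 0 h (28.3 to 38.1), whereas in RBBP5–FKBP cells Mdm2 is lowest at 24 h, at 15.5 to 21.9.

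Whether the lines differed was tested as the difference of their changes from 0 h. In nascent RNA at 24 h the change after RBBP5 loss was lower than that after DPY30 loss for 4 members, against 11.4% of 6968 genes. These were Ccng1 (difference −2.28 ± 0.45, adjusted p = 0.000147), Mdm2 (−2.08 ± 0.37, adjusted p = 3.06e-05), Cdkn1a (−1.81 ± 0.42, adjusted p = 0.00142) and Trp53inp1 (−1.40 ± 0.39, adjusted p = 0.00836). The all-gene median of this difference was −0.62. With T>C scaling the first 3 were −1.72, −1.51 and −1.24 and passed the test, and Trp53inp1, at −0.86, did not (adjusted p = 0.0998). Between dKO and DPY30–mAID cells, only Ccng1 differed (−1.66 ± 0.47, adjusted p = 0.0491), against 1.35% of genes, and with T>C scaling it did not pass. In these comparisons at 2 and 8 h edgeR called no member, and DESeq2 was not run for them. At an unadjusted p below 0.05 there were 0 at 2 h for either line, beside 2.14% of genes higher and 5.11% lower after RBBP5 loss and 0.502% and 0.517% in dKO cells, and at 8 h 2 higher after RBBP5 loss and 1 in dKO cells, beside 9.36% and 8.65% of all genes.

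The same differences in total RNA were fitted after the data had been seen. At 8 h the change after RBBP5 loss was higher than after DPY30 loss for Trp53inp1 (1.09 ± 0.17, adjusted p = 9.76e-05), Phlda3 (1.05 ± 0.32, adjusted p = 0.047), Aen (0.83 ± 0.17, adjusted p = 0.00163) and Mdm2 (0.64 ± 0.16, adjusted p = 0.0144), against 2.55% of 11562 genes. At 24 h the order was the other way. The change was lower after RBBP5 loss for Ccng1 (−1.23 ± 0.16, adjusted p = 3.69e-07), Mdm2 (−0.62 ± 0.16, adjusted p = 0.00475), Trp53inp1 (−0.52 ± 0.17, adjusted p = 0.033) and Aen (−0.47 ± 0.16, adjusted p = 0.0427), against 7.76% of genes. It was higher for Trp53 (1.57 ± 0.32, adjusted p = 0.00049), against 8.59%. Between dKO and DPY30–mAID cells at 24 h the change was higher for Trp53 (1.34 ± 0.37, adjusted p = 0.0147) and lower for Ccng1 (−0.86 ± 0.17, adjusted p = 0.000666), against 4.96% and 4.46%. The difference of Phlda3 at 8 h was not called without TMM scaling or with the replicate block, and that of Aen at 24 h not without TMM scaling. Summed markers of endoderm-like cells were at 42.7, 97.6 and 69.0 CPM at 0, 8 and 24 h after RBBP5 loss and at 66.8, 56.6 and 41.9 CPM after DPY30 loss, and neural markers at 73.0, 101 and 93.1 CPM and at 109, 93.7 and 42.7 CPM. Their part in the result was not tested.

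**Figure D4:**
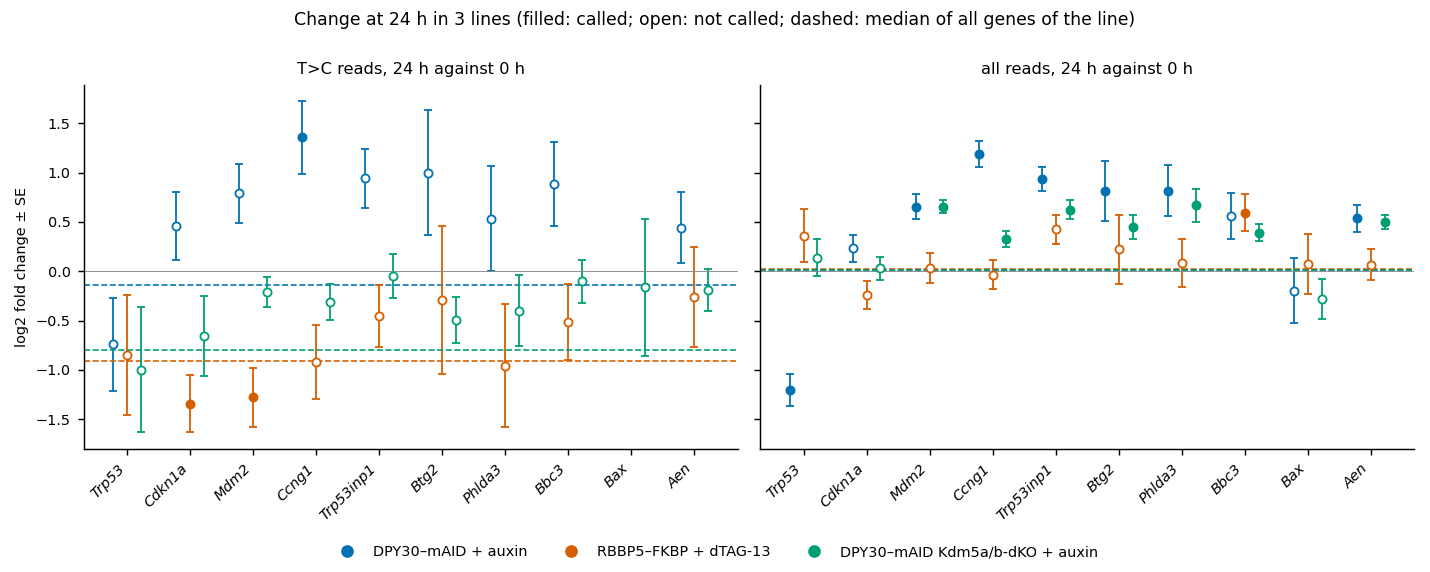
Log2 fold changes at 24 h against 0 h (vertical axes) with their SE are shown for each gene and line, for T>C reads at left and all reads at right, with filled points passing the test and dashed lines at the median of all genes of a line. Ccng1 in total RNA is at 1.19 in DPY30–mAID, 0.33 in dKO and −0.04 in RBBP5–FKBP cells.

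Under RA with DMSO, when mES cells leave self-renewal, most of the target genes rose and Trp53 fell. By day 6, 6 members rose and 3 fell, against 29.4% and 25.9% of 11415 genes, with a member median of 1.13 and an all-gene median of 0.07. Each day is compared with the same DMSO libraries of 0 h, and day 6 rests on 1 sample that is assumed to vary like the other groups. Ccng1 rose most, from 45.2 and 44.4 CPM at 0 h to 101 and 102 at day 1, 121 and 139 at day 2, 195 and 194 at day 4 and 326 at day 6 (2.67 ± 0.14, adjusted p = 8.66e-15). Trp53inp1 was at 36.7 and 39.7 CPM at 0 h, 155 and 176 at day 4 and 192 at day 6 (2.13 ± 0.15, adjusted p = 4.35e-12). Every later library of Ccng1 was above both of 0 h, and those of Trp53inp1 from day 1 on.

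Cdkn1a was late, at 93.2 and 83.7 CPM at 0 h, 89.1 and 90.9 at day 2, 129.8 and 143 at day 4 and 209.7 at day 6 (1.05 ± 0.20, adjusted p = 6.06e-05). Btg2 went from 14.3 and 13.8 CPM at 0 h to 56.4 CPM at day 6 and Phlda3 from 13.4 and 9.83 CPM to 54.2 CPM (1.81 ± 0.26 and 2.03 ± 0.29). Mdm2 was above 0 h at every time, from 95 and 106 CPM to 268 CPM at day 6 (1.22 ± 0.14, adjusted p = 6.31e-08). Trp53 went from 106 and 101 CPM at 0 h to 41.4 CPM at day 6 and fell by 1.52 on the log2 scale (SE 0.27, adjusted p = 3.73e-05). Bax was highest at day 1, at 104 and 87.0 CPM against 55.1 and 53.5 CPM at 0 h (0.82 ± 0.17, adjusted p = 0.000159), and at 23.8 CPM by day 6 (−1.38 ± 0.24, adjusted p = 2.88e-05). Aen also ended lower (−0.62 ± 0.15, adjusted p = 0.00125), and Bbc3 did not pass the test (0.35 ± 0.26).

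Earlier in the course, only Mdm2 rose at 8 h (0.50 ± 0.13, adjusted p = 0.00713), against 8.94% of genes, and that call was lost without replicate 1 of 0 h. At day 1, Mdm2, Ccng1, Trp53inp1 and Bax rose while Trp53 and Aen fell, against 27.9% and 23.9%. At day 2, Mdm2, Ccng1, Trp53inp1 and Phlda3 rose and Trp53 fell, against 25.4% and 22.6%. At day 4 there were 6 that rose and 3 that fell, against 27.8% and 26.5%. In the fits of day 4 without 1 library, 3 or 4 of those 9 calls were left, and Ccng1, Trp53inp1 and Phlda3 held in all of them. The call of Trp53inp1 at day 1 was lost without replicate 1 of 0 h or either library of day 1, and that of Phlda3 at day 2 without replicate 2 of 0 h or replicate 1 of day 2. Shares near these backgrounds are not particular to the members. Over the same days the summed mES cell markers went from 5967 CPM at 0 h to 1567 CPM at day 6, and the 6 endoderm-like markers from 31.0 to 3682 CPM. Their part in these changes was not tested, and in bulk RNA fewer cells of a type and less RNA per cell cannot be told apart.

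Under RA without DPY30, 5, 4 and 6 of the 10 genes were called higher than in DMSO at days 2, 4 and 6, while 2 were called lower at day 4 and 1 at day 6. Against DMSO of the same day, 5 of 10 members rose at day 2 and none fell, with 5.32% of genes rising and member and all-gene medians of 0.58 and 0.01. Phlda3 was at 51.9 and 59.2 CPM in auxin and 23.2 and 19.1 CPM in DMSO (1.28 ± 0.24, adjusted p = 0.000448). Btg2 was at 43.3 and 43.0 CPM against 15.5 and 26.1 CPM (0.93 ± 0.23, adjusted p = 0.00596), a difference of 0.60 that was not called without DMSO replicate 1. Ccng1 was at 214 and 225 CPM against 121 and 139 CPM (0.65 ± 0.11, adjusted p = 0.000294), and Trp53inp1 at 138 and 143 CPM against 81.4 and 79.7 CPM (0.69 ± 0.13, adjusted p = 0.00042). Aen rose as well (0.64 ± 0.12, adjusted p = 0.000556). Cdkn1a, Mdm2, Bbc3, Bax and Trp53 missed the threshold.

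At day 6 auxin gave 6 rises and 1 fall, against 6.62% and 12.2% of genes, with member and all-gene medians of 0.57 and −0.03. Cdkn1a was at 435 and 611 CPM in auxin against 209.7 CPM in DMSO (1.13 ± 0.19, adjusted p = 0.000129), its highest level among the Quant-seq libraries. Aen was at 235 and 260.2 CPM against 107 CPM (1.02 ± 0.15, adjusted p = 2.44e-05) and Bbc3 at 96.2 and 104 CPM against 46.3 CPM (0.92 ± 0.25, adjusted p = 0.00966). Trp53inp1, Btg2 and Phlda3 also rose, by 0.42 to 0.79. The order was turned for Ccng1, at 315 and 263 CPM in auxin and 326 CPM in DMSO (−0.37 ± 0.13, adjusted p = 0.045). Btg2 and Phlda3 lost their calls without auxin replicate 1, where Phlda3 went from 0.72 to 0.32, and Ccng1 lost its call without auxin replicate 2 or without TMM scaling. Trp53inp1 and Ccng1 were also not called with no filter on low counts or with the replicate block. DESeq2 called only Cdkn1a, Aen and Bbc3 at day 6.

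At day 4, Btg2 was at 67.0 and 70.0 CPM in auxin against 29.3 and 22.8 CPM in DMSO (1.18 ± 0.21, adjusted p = 0.000141). Phlda3, Mdm2 and Trp53inp1 also rose and Trp53 and Bax fell, against 7.04% and 11.5% of genes. The calls of Trp53, Trp53inp1 and Phlda3 were lost without any 1 of the 4 libraries. Those of Mdm2 and Bax were lost without auxin replicate 1 or either DMSO library, and DESeq2 called only Btg2. At day 1 only Aen rose, from 91.7 and 106 CPM in DMSO to 168 and 179.5 CPM in auxin (0.83 ± 0.13, adjusted p = 0.000142), against 3.52% of genes. At 8 h edgeR and DESeq2 called no member, with 1 higher and 1 lower at an unadjusted p below 0.05, beside 4.13% and 6.62% of genes. DESeq2 gave no adjusted p to 5975 of 11415 genes at 8 h, and any member among these could not be called. The auxin effect of day 4 was also compared with that of 8 h, and neither tool called a member, with 1 higher and 1 lower at an unadjusted p below 0.05, beside 7.88% and 11.4% of genes. Here DESeq2 gave no adjusted p to 3099 genes. In that comparison Btg2 had a difference of 1.18 ± 0.38 (adjusted p = 0.0594). In the libraries of auxin the endoderm-like markers summed to 243 CPM at day 2, 653 CPM at day 4 and 727 CPM at day 6, against 391, 1646 and 3682 CPM in DMSO. The mES cell markers summed to 1704 CPM in auxin and 1567 CPM in DMSO at day 6, and fibroblast markers to 70.1 and 33.0 CPM. The part of these cells in the result was not tested.

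**Figure D5:**
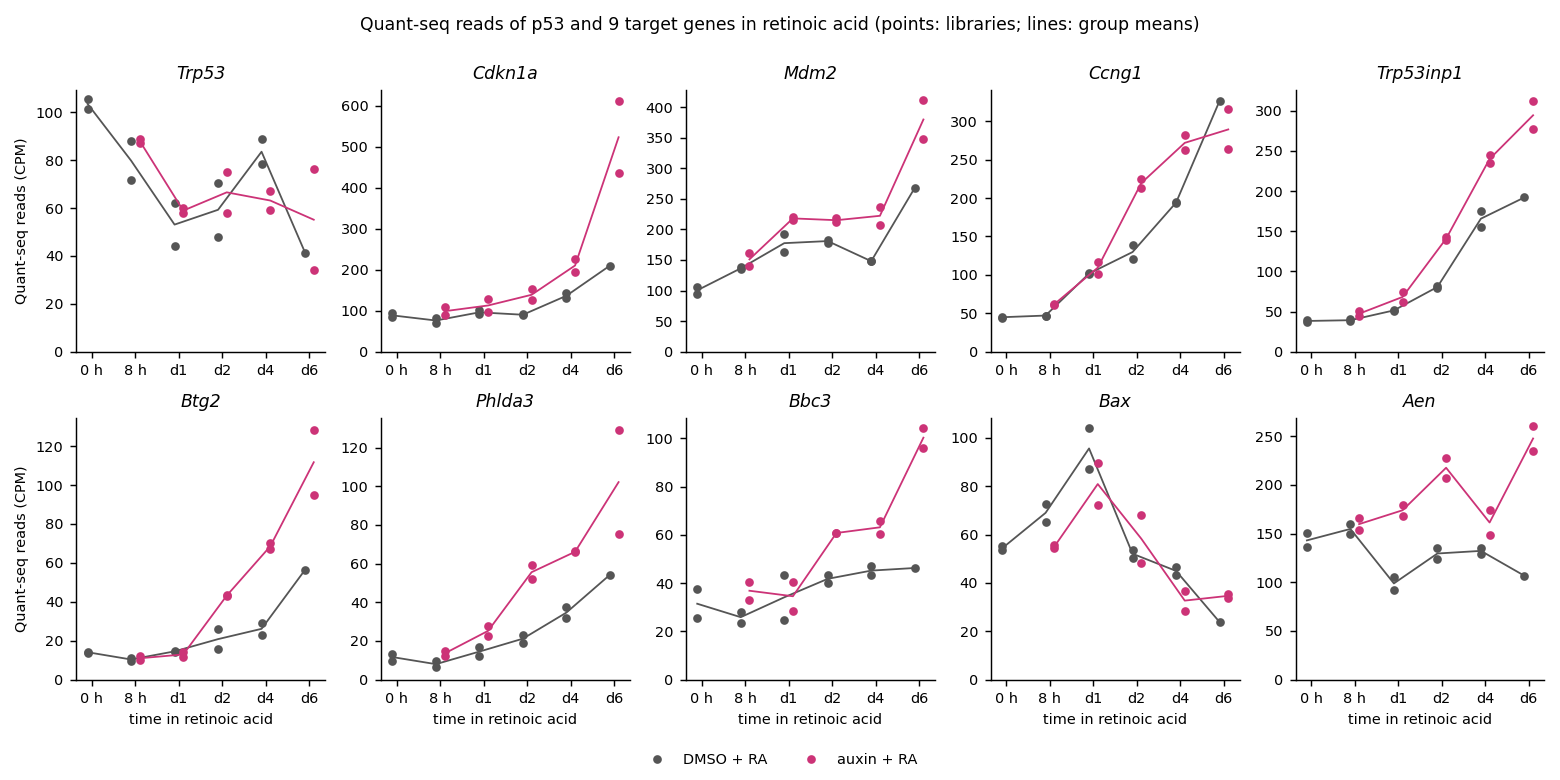
Quant-seq reads of each gene in CPM (vertical axes) are plotted over RA treatment in DMSO (grey) and auxin (pink), with a point per library and lines through group means. Cdkn1a at day 6 is at 435 and 611 CPM in auxin and 209.7 CPM in DMSO, while Trp53 is at 41.4 CPM at day 6 in DMSO, below both libraries of 0 h.

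Other known p53 targets, from a list of 39 genes of which 37 were in the files, were counted in the same fits. In total RNA at 24 h without DPY30, 8 of the 34 tested rose and 3 fell, beside 15.9% and 17.1% of all genes, with a median of 0.23 against 0.01. The largest changes were those of the ribonucleotide reductase subunit Rrm2b (2.20), of Ei24 (1.69) and of Ckap2 (1.25). In nascent RNA from 8 to 24 h, 11 of 22 rose and none fell, beside 17.1% of all genes rising and with a median of 1.20 against 0.56 over all genes, led by Sertad1 (2.43), Perp (2.34) and Rps27l (2.22). In dKO total RNA, 5 rose and 2 fell of 36 at 24 h and 7 rose and 1 fell at 48 h, where Plk2 (1.20), Sertad1 (0.77) and Polk (0.69) led. Of all genes there, 5.05% rose and 6.44% fell at 24 h and 6.72% and 7.84% at 48 h. After RBBP5 loss, 2 of 34 rose at 8 h (Zmat3 0.80 and Rps27l 0.51), and 1 rose and 2 fell at 24 h, beside 4.13% of all genes rising at 8 h and 2.99% rising and 4.49% falling at 24 h. At 8 h without DPY30, 4 of 34 fell in total RNA and none rose, beside 7.61% of all genes falling, with Dcxr (−1.12), Epha2 (−1.10) and Perp (−0.96) lowest.

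Under RA in DMSO, 17 of 35 such targets rose and 7 fell by day 6, beside 29.4% and 25.9% of all genes, with a median of 0.94 against 0.07, among them the kinase gene Plk2 (4.42) up and the cytokine gene Gdf15 down (−2.78). Auxin against DMSO gave 2 rises and 1 fall at day 2, 3 of each at day 4 and 6 rises and 2 falls at day 6, with medians of 0.13, 0.09 and −0.01. Of all genes, 5.32%, 7.04% and 6.62% rose and 8.09%, 11.5% and 12.2% fell on these days. At day 6 Epha2 was lower in auxin (−2.02) and Perp, a p53 effector at desmosomes, higher (1.59). In nascent RNA at 24 h, the change after RBBP5 loss was lower than that after DPY30 loss for 5 of 29 targets, beside 11.4% of all genes, with Trp53i11 (−3.52), Sertad1 (−2.98) and Sesn2 (−2.58) lowest.

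Regulators and relatives of p53 were counted in the same way, from a list of 24 genes with 23 in the files. At 24 h without DPY30, 3 of 20 rose and 5 fell in total RNA, near the 15.9% and 17.1% of all genes, with a median of −0.17. The kinase gene Hipk2 (−2.95) and the coactivator gene Crebbp (−1.32) were lower and the checkpoint kinase gene Chek2 (1.48) higher. In dKO total RNA at 48 h, Ppm1d, which encodes a phosphatase of p53, rose by 0.43 as the only call of 22, beside 6.72% of all genes rising and 7.84% falling. After RBBP5 loss at 8 h Mdm4, which encodes the partner of MDM2, rose by 0.80 as the only call of 21, beside 4.13% of all genes rising. Under RA in DMSO at day 6, 5 of 21 rose and 9 fell, beside 29.4% and 25.9% of all genes, with Cdkn2a (3.89), whose ARF product blocks MDM2, and Hipk2 (3.82) highest and Chek2 (−1.83) lower. Auxin against DMSO gave 1 rise and 3 falls at day 4, beside 7.04% and 11.5% of all genes, and 3 rises and 1 fall at day 6, beside 6.62% and 12.2%. Chek1 was lower at both (−1.32 and −1.18).

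The share of reads with a T>C conversion differed between the 10 genes at 0 h. In DPY30–mAID cells it was 39.3% for Bbc3, 38.4% for Trp53inp1, 37.2% for Mdm2, 36.1% for Phlda3, 31.7% for Btg2, 24.9% for Cdkn1a, 22.7% for Aen and 21.2% for Ccng1. It was 9.76% for Trp53 (95% exact interval 8.21 to 11.5%) and 6.04% for Bax (3.06 to 10.6%), so Trp53 and Bax stood below the 8 others. Intervals cover counting error only. The same pair was among the 3 lowest in RBBP5–FKBP cells, at 9.04% and 2.03%, where Aen had 8.55%. In dKO cells, where every share was below that in DPY30–mAID cells, Bax was lowest at 2.15%, and Cdkn1a, at 5.22%, was below Trp53 at 6.02%. In unlabelled Quant-seq libraries the shares were 0.132 to 0.869%. The T content of the counted intervals, their read coverage and labelling all enter these shares, so they are not read as rates of synthesis.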

How the data were processed

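SLAM-seq and Quant-seq libraries of mES cells were analysed from the counts that the authors deposited for 46420 3′ UTR intervals. Per the file headers the intervals were counted with SlamDunk 0.3.4 on GRCm38, and each holds counts of all reads, T>C reads and multi-mapped reads, without molecular identifiers. For Quant-seq the study's methods name HISAT2 2.2.1 and featureCounts on mm10. A filter of the methods on conversions per read is not visible in the deposited counts and was not repeated, which leaves more background in T>C reads. Intervals were summed per gene, with names and coordinates from GENCODE vM21.

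The test was edgeR's quasi-likelihood test (4.0.16, R 4.3.3), with 1 fit per SLAM-seq line, 1 for all RA groups and 1 over the lines for their differences, after genes whose mean was under 10 reads in every group had been left out. P-values were Benjamini-Hochberg adjusted over all genes tested and called below 0.05. T>C reads used total reads as library size with TMM factors from total reads. CPM carry no TMM factor, while log2 fold changes do. At days 4 and 6 this lowers the fold changes by about 0.2, both for auxin against DMSO and for DMSO against 0 h. Depth is the sum of counts per library, and exact intervals (95%) cover counting error only. DESeq2 1.42.0, other scalings and filters, fits of 2 groups, the replicate block and leaving out each library were alternatives, and the fits were tested on simulated data. Tables and figures used Python 3.11.15, pandas 2.3.3, numpy 2.4.6, scipy 1.17.1 and matplotlib 3.10.9.

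Groups came from the labels. Named were all 10 genes and, of lists of 39 other targets and 24 regulators, at most 3 called genes per list and comparison with the largest change, of which genes with almost no reads in a group were left out. Genes most like Cdkn1a and Trp53 were the 5 with the highest Pearson correlation of log2 CPM with a prior count of 2. The 10 genes, the lists and the marker genes of mES, endoderm-like, neural and fibroblast cells were chosen with earlier results of these data known, and support nothing on their own. Promoter sequences came from RefSeq.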

Additional observations from a re-analysis of the deposited data

Results flagged for a closer look

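Flagged here are changes from 0 h that differed between lines by a test of the difference itself, an interaction term in edgeR's fit over the lines. In nascent RNA at 24 h, the difference of the RBBP5–FKBP from the DPY30–mAID change was −2.28 for Ccng1 (−0.92 against 1.36 in each line's own fit), −2.08 for Mdm2 (−1.28 against 0.79), −1.81 for Cdkn1a and −1.40 for Trp53inp1 (−0.45 against 0.94). For dKO cells against DPY30–mAID cells it was −1.66 for Ccng1. With T>C scaling this value (−1.01) and that of Trp53inp1 (−0.86) were not called.

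In total RNA, with differences fitted after the data were seen, RBBP5–FKBP cells were above DPY30–mAID cells at 8 h for Trp53inp1 (1.09), Phlda3 (1.05), Aen (0.83) and Mdm2 (0.64, with 0.19 against −0.43 in each line's own fit). At 24 h they were above for Trp53 (1.57, with 0.36 against −1.20) and below for Ccng1 (−1.23, with −0.04 against 1.19), Mdm2 (−0.62), Trp53inp1 (−0.52) and Aen (−0.47). For dKO cells at 24 h the difference was 1.34 for Trp53 (0.14 against −1.20) and −0.86 for Ccng1 (0.33 against 1.19). The value of Phlda3 at 8 h was not called without TMM factors or with the replicate block, and that of Aen at 24 h not without TMM factors. Libraries of dKO cells covered 11.2 to 11.3 T positions per read, against 18.4 to 19.0 in DPY30–mAID and 18.0 to 19.0 in RBBP5–FKBP cells, so for dKO cells the line and this difference cannot be told apart.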

How the results depend on the processing

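Of 4140 alternative values of single members, 3692 kept their direction and side of the threshold. The direction of 9 values that were called before or after turned, all in dKO nascent RNA with TMM factors from T>C reads, 3 at 24 h (Mdm2 0.52, Trp53inp1 0.68 and Bbc3 0.63) and 6 at 48 h (Mdm2 0.44, Ccng1 0.49, Trp53inp1 1.08, Btg2 0.47, Bbc3 0.41 and Aen 0.37). Of 425 alternative counts of members called, 78 moved by over 1.5 times. With that T>C scaling the count went from 3 to 1 in DPY30–mAID nascent RNA at 8 h and from 1 to 4 at 24 h. Of all 6317 genes, 66 and 428 were then called higher and 287 and 424 lower. In dKO nascent RNA the count went from 0 to 3 at 24 h, from 6 to 3 at 48 h and from 0 to 3 for 24 against 8 h. Calls at 48 h were falls before and rises after. Of all 5965 genes, 132, 150 and 65 were then called higher and 222, 301 and 36 lower. In RBBP5–FKBP nascent RNA it went from 2 to 0 at 24 h and from 1 to 0 for 24 against 8 h, and in the dKO difference at 24 h from 1 to 0. Of all 4761 genes, 18 were then called higher and 118 lower at 24 h and none for 24 against 8 h. In the dKO difference 10 of 6968 genes were called higher and 13 lower.

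A minimum log2 fold change of 1 left 1 of 3 in nascent and 0 of 3 in total RNA of DPY30–mAID cells at 8 h, 2 of 7 in total RNA at 24 h, 1 of 6 in dKO nascent RNA at 48 h, and 0 of 7 in dKO total RNA at both 24 and 48 h. It left 1 of 3 and 0 of 1 in RBBP5–FKBP total RNA at 8 and 24 h. Under RA it left 0 of 1 at 8 h, 1 of 6 at day 1, 1 of 5 at day 2 and 3 of 9 at day 4 in DMSO, and 0 of 1, 1 of 5, 1 of 6 and 2 of 7 for auxin against DMSO at days 1, 2, 4 and 6. DESeq2 called 3 instead of 1 in DPY30–mAID nascent RNA at 24 h, 2 and 1 instead of 0 in RBBP5–FKBP nascent RNA at 2 and 8 h, 5 instead of 9 in DMSO at day 4, and 1 instead of 6 and 3 instead of 7 for auxin at days 4 and 6. With no filter on low counts the count was 1 for DPY30–mAID nascent RNA at 8 h, 1 for dKO total RNA at 2 h and 0 for RBBP5–FKBP total RNA at 24 h. With no TMM factors it was 0 and 1 in nascent and total RNA of DPY30–mAID cells at 8 h and 1 for the auxin effect of day 4 minus that of 8 h. Fits of the 2 groups compared gave 0 and 3 in DPY30–mAID nascent RNA at 8 and 24 h, 0 in RBBP5–FKBP nascent RNA for 24 against 8 h and total RNA at 24 h, and 3 in DMSO at 8 h and for auxin at day 1. In this section, counts given with no share of all genes show only how calls depend on the setting. Nothing about the members is read from them. The cause was not tested.

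Same-numbered libraries did not all deviate together, with correlations of deviations from −0.0298 to 0.0252 in DPY30–mAID nascent RNA, −0.0983 to 0.339 in dKO total RNA, −0.173 to 0.134 in RBBP5–FKBP total RNA and −0.189 to 0.281 in Quant-seq. These values cannot show whether the samples were paired. With the replicate number as a block, RBBP5–FKBP total RNA at 24 h went from 1 to 0 called members, and DPY30–mAID total RNA at 24 h had 8.

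Leaving out 1 library at a time gave 0 to 6 called members in DPY30–mAID nascent RNA at 8 h and 0 to 0 at 24 h, 0 to 3 in its total RNA at 8 h, 3 to 6 in dKO total RNA at 24 h, 0 to 1 in dKO total RNA at 2 h and at 8 h and in dKO nascent RNA at 24 h. It gave 0 to 1 in RBBP5–FKBP nascent RNA for 24 against 8 h and in its total RNA at 24 h, 0 to 1 in DMSO at 8 h, 3 to 4 in DMSO at day 4 and 1 to 3 for auxin at day 4. The differences between lines were not refitted without single libraries. Depth limits the nascent values of Bax, which had too few T>C reads to test in DPY30–mAID and RBBP5–FKBP cells.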

Other observations

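Over the 21 Quant-seq libraries, which share line, assay and RA course, the 5 of 11415 tested genes whose log2 CPM followed Cdkn1a most closely were Cavin2 (Pearson r = 0.942), Krt15 (0.941), Nts (0.933), Jund (0.931) and Spp2 (0.925). Among the members Btg2 came closest (0.851, place 66), followed by Trp53inp1 (0.803), Phlda3 (0.803), Bbc3 (0.789), Mdm2 (0.727) and Ccng1 (0.695), while Bax (−0.687) and Trp53 (−0.654) ran the other way and Aen had 0.275. The genes that followed Trp53 most closely were Cks2 (0.865), Ptma (0.861), Wdr5 (0.860), G3bp1 (0.857) and Bub1b (0.857), and the member that ran most against it was Mdm2 (−0.791). These are descriptions over libraries of a shared time course, with no test.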
